A study of Mus musculus with 3 samples.

Results

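Small nucleolar RNA (snoRNA) loci were followed through RNA sequencing of the mouse dentate gyrus, a hippocampal region rich in granule cells. The rows were those whose gene symbol begins with Snord or Snora on chromosomes 1 to 19. They numbered 110 of the 24458 rows of the table, 76 of them box C/D (Snord, 68 symbols) and 34 box H/ACA (Snora, 33 symbols). The study addressed how neuronal activation alters open chromatin and RNA in this tissue. The libraries form 1 group, labelled E24, with 3 replicates. All came from C57BL/6 animals, adult and aged 8 weeks, with the dentate gyrus microdissected, the RNA taken up with an RNeasy kit and 1 library made for each animal. How far RNA as short as snoRNAs was kept through this preparation was not tested. The deposited table that holds all 3 libraries is also marked WT and ECT, and the labels spell out neither these nor E24. No other group was analysed here, so no conditions were compared. The values are RPKM, reads scaled to the length of the transcript and to the number of mapped reads.

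snoRNAs are short nuclear RNAs that steer enzymes to chosen bases of ribosomal and spliceosomal RNA. Box C/D members carry a C motif near the start and a D motif near the end, are bound by fibrillarin, and guide methylation of the ribose. Box H/ACA members end in an ACA motif, are bound by dyskerin, and guide the change of uridine to pseudouridine. In mammals most are cut out of the introns of host genes, many of which encode ribosomal proteins or are noncoding transcripts kept mainly for the snoRNAs they carry.

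The sequences of 7 snoRNAs are shown because the rows that bear their names are singled out below. Snord42a (chr11:78181299-78181363, minus strand) and Snora21 (chr11:97781639-97781775, minus strand) name the rows at 100 RPKM or more in every library. Snord95 (chr11:48803139-48803206, plus strand) and Snord104 (chr11:106500993-106501062, plus strand) name the highest snoRNA rows. Snord16a (chr9:64175423-64175521, plus strand) and Snora65 (chr2:32963291-32963420, plus strand) name rows whose values alternated with those of the host row. Snord116l1 (chr7:59894620-59894713, minus strand) stands for the imprinted cluster at 0. They are GENCODE M21 transcripts on GRCm38, printed 5′ to 3′ as DNA, and the capitals mark TGATGA in the first 20 bases and CTGA in the last 20 bases of box C/D members, and ACA in the last 20 bases of box H/ACA members.
Snord42a: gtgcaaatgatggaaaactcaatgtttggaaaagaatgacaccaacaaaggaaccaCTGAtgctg
Snora21: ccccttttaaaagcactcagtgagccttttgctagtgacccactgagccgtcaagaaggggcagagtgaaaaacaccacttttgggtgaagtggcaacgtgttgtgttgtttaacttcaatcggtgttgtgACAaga
Snord95: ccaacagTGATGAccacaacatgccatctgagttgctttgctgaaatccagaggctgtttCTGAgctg
Snord104: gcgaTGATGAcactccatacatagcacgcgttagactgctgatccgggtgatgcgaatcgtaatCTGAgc
Snord16a: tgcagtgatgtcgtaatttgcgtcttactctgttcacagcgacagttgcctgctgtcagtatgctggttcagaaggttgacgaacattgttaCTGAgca
Snora65: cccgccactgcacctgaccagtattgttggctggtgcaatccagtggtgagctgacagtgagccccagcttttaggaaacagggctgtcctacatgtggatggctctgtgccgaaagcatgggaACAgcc
Snord116l1: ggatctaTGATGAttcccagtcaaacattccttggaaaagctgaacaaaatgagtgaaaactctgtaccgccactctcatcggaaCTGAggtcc

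GENCODE M21 held all but 2 of the symbols (Snord43 and Snord116). Of the genes found, 89 (88.1%) lay within an intron of a gene on the same strand, 8 overlapped an exon, and 4 had no host found on that strand. The host was protein-coding for 71 and noncoding for 26. The 4 were Snord104, Snora17 and 2 entries of Snora43. In mm9 the rows for Snora17 and Snora43 lay inside the row for Snhg7, so the lack of a host depends on the annotation. Snord42a and Snora21 lay in introns of Rpl23a and Rpl23, which encode proteins of the large ribosomal subunit, and Snord104 had no host. Among 66 box C/D sequences, TGATGA was found in the first 20 bases of 42 (63.6%), against none of the 35 box H/ACA sequences and 0.700% of all 141767 GENCODE transcripts. CTGA stood in the last 20 bases of 64 box C/D sequences (97.0%) and of 5 box H/ACA sequences (14.3%), with 9.24% of all transcripts as background. ACA stood in the last 20 bases of 15 box C/D sequences (22.7%) and of 33 box H/ACA sequences (94.3%), with 28.8% of all transcripts. On the opposite strand TGATGA was found in neither class, CTGA in 4.55% of box C/D and 17.1% of box H/ACA sequences, and ACA in 42.4% of box C/D and 37.1% of box H/ACA sequences. Both TGATGA and CTGA were found in 40 of the 66 box C/D sequences and in none of the 35 box H/ACA sequences. Snord42a and Snord16a are among the box C/D members without TGATGA in that window.

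In this table the values of a row can differ sharply between libraries, and some return in a nearby row. A value therefore belongs to a row and its symbol, and none is read as the level of the gene so named. Marker rows of the tissue were unsteady too, and whether their values were displaced along the rows was not tested. None of the 6 rows for granule neuron markers passed a limma test for a level above 1 RPKM, which 18.3% of all rows passed. The row for Prox1, a transcription factor of granule neurons, stood at 1.58, 39.3 and 0 RPKM in replicates 1 to 3. Of the other cell types, 3 of 4 pyramidal, 2 of 5 interneuron, 0 of 3 astrocyte, 0 of 3 oligodendrocyte, 2 of 3 microglial, 1 of 2 endothelial and 0 of 2 choroid plexus rows passed, and the choroid plexus row Ttr stood at 55.3, 1.15 and 0.396 RPKM. The summed RPKM of all rows was 384523, 369261 and 350942. Read depth is unknown, so no counting interval is given.

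Most snoRNA rows were at 0, and a small share was very high. Rows at 0 made up 60.9%, 66.4% and 57.3% of the 110 in replicates 1, 2 and 3 (61.5% ± 4.58, SD, n = 3). The mean was 57.3% ± 4.21 for the 1047 rows of microRNAs, 74.1% ± 4.24 for the 36 other rows under 250 bp, and 27.3% ± 1.14 for the other 21927 autosomal rows. At least 1 RPKM was reached by 31.2% ± 4.58 of snoRNA rows, 31.4% ± 3.45 of microRNA rows and 51.8% ± 0.344 of the other autosomal rows. At the top the order was another: 9 rows, 8 rows and 13 rows of snoRNAs reached 100 RPKM in replicates 1, 2 and 3 (9.09% ± 2.41). That share was 2.42% ± 0.584 for microRNA rows, 0% for the other short rows and 2.49% ± 0.131 for the other autosomal rows. In each library the snoRNA share at 100 RPKM or more lay above the other 3 shares. Of the whole table's RPKM, 1.96%, 1.38% and 1.44% stood in snoRNA rows.

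Box C/D rows were at 0 in a larger share than box H/ACA rows, and box H/ACA rows reached 1 and 100 RPKM more often, in each of the 3 libraries. At 0 stood 61.8%, 69.7% and 59.2% of box C/D rows (63.6% ± 5.48), against 58.8%, 58.8% and 52.9% of box H/ACA rows (56.9% ± 3.40). At least 1 RPKM was reached by 28.9%, 22.4% and 30.3% of box C/D rows (27.2% ± 4.23), against 38.2%, 35.3% and 47.1% of box H/ACA rows (40.2% ± 6.12). At least 100 RPKM was reached by 5, 3 and 7 box C/D rows (6.58% ± 2.63), against 4, 5 and 6 box H/ACA rows (14.7% ± 2.94). The differences within libraries, box C/D minus box H/ACA, were 6.73 ± 3.97 percentage points at 0, -13.0 ± 3.75 at 1 RPKM or more and -8.13 ± 2.80 at 100 RPKM or more (SD, n = 3). Each had the same sign in 3 of 3 libraries, and each exact two-sided sign-flip permutation test gave p = 0.25, the smallest that 3 libraries allow. The 3 p-values are not adjusted, since none can pass 0.05. Without the 10 Snord116 rows, of which all were at 0, the difference at 0 was 1.22 ± 4.65 points, with values of -2.76, 6.33 and 0.0891 in replicates 1, 2 and 3 (exact p = 0.75). The differences at 1 and at 100 RPKM or more were then -8.88 ± 3.70 and -7.13 ± 2.99 points, negative in each library.

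**Figure D1:**
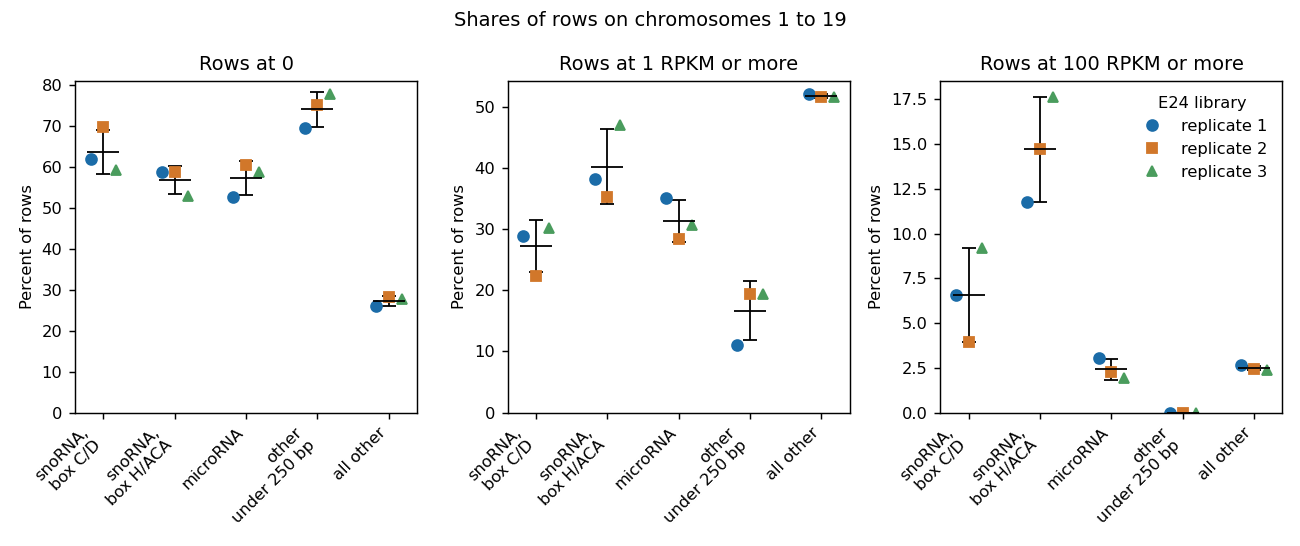
Percent of rows on chromosomes 1 to 19 at 0, at 1 RPKM or more and at 100 RPKM or more, with a point for each of the 3 E24 libraries and bars for the mean and SD, for 76 box C/D, 34 box H/ACA, 1047 microRNA, 36 other rows under 250 bp and 21927 other rows. The mean share at 0 is 63.6% for box C/D, 56.9% for box H/ACA and 57.3% for microRNA rows, and at 100 RPKM or more box H/ACA rows stand at 14.7% and box C/D rows at 6.58%, against 2.42% of microRNA rows.

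The locus lengths in the table ran from 45 to 221 bp for box C/D rows (median 68) and from 54 to 198 bp for box H/ACA rows (median 118). Rows of 120 bp or more, 4 box C/D and 16 box H/ACA, were at 0 in 50% ± 5 and reached 100 RPKM in 6.67% ± 2.89. Rows under 70 bp, 39 box C/D and 4 box H/ACA, were at 0 in 62.8% ± 6.15 and reached 100 RPKM in 6.98%. The highest share at 100 RPKM or more was in the rows of 90 bp or more but under 120 bp, 16 box C/D and 14 box H/ACA, at 14.4% ± 5.09. Class and length move together here, and their parts in the class difference were not tested. Some lengths in the table differ from GENCODE's: the Snord42a row spans 45 bp and its transcript 65, and the Snora65 row spans 118 bp and its transcript 130.

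The level of each row was also followed across the libraries. At 0 in all 3 libraries stood 45 of 110 rows (40.9%), of which 35 were box C/D and 10 box H/ACA. That share was 38.1% for microRNA rows, 50% for the other short rows and 16.3% for the other autosomal rows. At 1 RPKM or more in all 3 stood 14 rows, 9 of them box C/D and 5 box H/ACA. So did 131 of 1047 microRNA rows, 0 of 36 other short rows and 7523 of 21927 other autosomal rows. At 100 RPKM or more in at least 1 library stood 19 rows, 10 box C/D and 9 box H/ACA, and in all 3 libraries 2 rows, Snord42a and Snora21. Of the 19, 14 were under 1 RPKM in another library (73.7%), and all 14 were listed at 0 there. Among the microRNA rows that reached 100 RPKM in a library, 47 of 61 (77.0%) were under 1 RPKM in another. Among the other autosomal rows the count was 490 of 1196 (41.0%).

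The highest box C/D rows were those for Snord95 and Snord104, both on chromosome 11. The row for Snord95 (mm9 positions 48616641 to 48616708), which lies inside the row for Gnb2l1 (Rack1, a scaffold protein of the small ribosomal subunit), had 1951, 2600 and 0 RPKM in replicates 1, 2 and 3. Its host row was steady at 177, 180 and 166 RPKM, so the snoRNA row was above the host in replicates 1 and 2 and listed at 0 in replicate 3. The row for Snord104 (106362305 to 106362377), inside no other row, had 2644, 0 and 1482 RPKM. Within 5 rows of Snord104 the highest value in replicate 2 was 20.4 RPKM, so no nearby row held a value of that size in the library where the Snord104 row was at 0. Likewise, in replicate 3 the highest value within 5 rows of Snord95 was the host's 166 RPKM.

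Snord42a and Snora21 named the rows that were high in every library. The row for Snord42a (chromosome 11, 77994804 to 77994848), a box C/D snoRNA, had 437.7, 360.3 and 356.3 RPKM. The row for its host Rpl23a had 1.08, 0.639 and 5.61 RPKM, and the rows for Snord4a and Snord42b in the same host were at 0 in each library. The row for Snora21 (chromosome 11, 97642953 to 97643080), a box H/ACA snoRNA, had 141.5, 125.0 and 120.5 RPKM, and the row for its host Rpl23 had 25.7, 6.60 and 27.1 RPKM. In both pairs the snoRNA row was above the host row in 3 of 3 libraries.

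Of the next box C/D rows, those for Snord33, Snord2 and Snord89 reached 100 RPKM in some of the libraries and the row for Snord8 in none. The row for Snord33, in the ribosomal protein gene Rpl13a, had 0, 0 and 648.5 RPKM, while the rows for Snord32a, Snord34 and Snord35a of the same host were at 0 throughout and the host had 329, 281 and 271 RPKM. The row for Snord2, in the translation initiation factor gene Eif4a2, had 1.92, 249.6 and 254.7 RPKM against 2.56, 2.51 and 2.59 RPKM in the host row. In replicate 1 the value of that size near Snord2 stood 3 rows below it, at 276.1 RPKM in the row for Gm10823. The row for Snord89, inside no other row, had 0, 0 and 307.7 RPKM, and the row for Snord8, in the chromatin remodeller gene Chd8, had 60.7, 57.4 and 41.8 RPKM against 112, 98.2 and 95.4 RPKM in the host row.

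Of box H/ACA rows, the highest mean belonged to Snora31, in Tpt1, which encodes a translationally controlled tumour protein. Its row had 625.4, 1.23 and 1.16 RPKM and the host row 9.69, 12.1 and 11.4 RPKM. Within 5 rows of Snora31 the highest values in replicates 2 and 3 were 909.7 and 852.9 RPKM, in the row for Zc3h13, which stood at 0 in replicate 1. The rows for Snora34 and Snora2b, both in Kansl2, a subunit gene of a chromatin complex, had 0, 511.3 and 110.2 RPKM and 68.5, 259.5 and 0 RPKM. The rows for the tubulin genes Tuba1a and Tuba1b stand within 5 rows of Snora34, with 506.6, 15.6 and 492.9 RPKM for Tuba1a and 446.1, 106.8 and 14.4 RPKM for Tuba1b. Snora15, in the chaperonin gene Cct6a, had 159.5, 2.42 and 134.5 RPKM, and its host row 0, 0.793 and 0 RPKM. Snora30, inside no other row, had 0, 0 and 138.9 RPKM, and Snora3, in Rpl27a, had 40.8, 0 and 0 RPKM against 204.2, 180.8 and 174.1 RPKM in its host row.

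**Figure D2:**
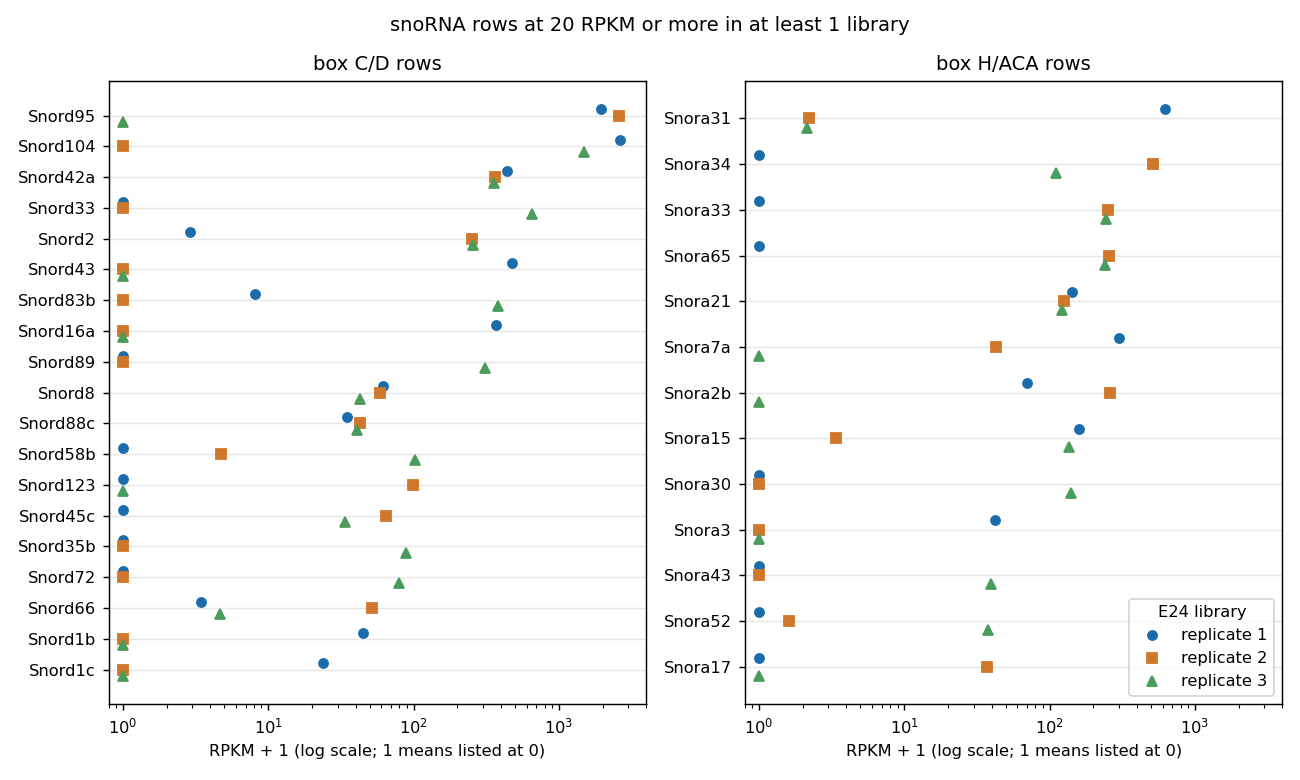
RPKM + 1 on a log axis for each snoRNA row that reached 20 RPKM in at least 1 of the 3 E24 libraries, box C/D on the left and box H/ACA on the right, ordered by mean, with a point per library. The rows for Snord42a, Snord8, Snord88c and Snora21 are the ones whose points lie close together, and most of the others have at least 1 library at 0.

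A limma fit on log2(RPKM + 1) over all 24458 rows tested each row against 1 RPKM, one-sided, with Benjamini-Hochberg adjustment. It called 9 of the 110 snoRNA rows (8.18%), against 18.3% of all rows. The snoRNA share was also the lower in each fit that left out 1 library, at 12.7% against 20.3% of all rows without replicate 1, 9.09% against 12.5% without replicate 2 and 6.36% against 10.8% without replicate 3. Called were 7 box C/D rows (9.21%) and 2 box H/ACA rows (5.88%), and at an unadjusted p under 0.05 the counts were 8 and 3. Of microRNA rows 82 of 1047 were called (7.83%). The difference from 1 RPKM on the scale of log2(RPKM + 1) had a median of -0.22 over the snoRNA rows and 0.59 over all rows. For rows above 1 RPKM this difference is smaller than the log2 ratio to 1 RPKM.

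The called rows are given by their difference from 1 RPKM on the scale of log2(RPKM + 1), with SE. The highest were Snord42a, 7.58 ± 0.35 (limma adjusted p = 0.0025), Snora21, 6.02 ± 0.15 (limma adjusted p = 0.00144), and Snord8, 4.74 ± 0.17 (limma adjusted p = 0.00165). Snord88c had 33.9, 41.8 and 40.1 RPKM and a difference of 4.30 ± 0.12 on that scale (limma adjusted p = 0.00144). The other 5 had means of 9.59 to 13.4 RPKM. They were Snord67, in the microtubule protein gene Ckap5, at 13.2, 12.4 and 12.6 RPKM, Snord19 and Snord69, both in the nucleolar GTPase gene Gnl3, at 10.8, 11.6 and 12.0 and at 9.74, 9.30 and 9.72 RPKM, Snora62, in the ribosomal protein gene Rpsa, at 10.50, 10.49 and 10.63 RPKM, and Snord47, in the noncoding host Gas5, at 4.43, 17.1 and 18.7 RPKM. Apart from Snord47, these low rows varied little between libraries. At such means the test favours steady rows, so this follows in part from the selection. Snora3, with a mean of 13.6 RPKM from 40.8, 0 and 0 RPKM, was not called. Snord47 had the weakest call (limma adjusted p = 0.045), which was lost without replicate 2, without replicate 3 and without the variance trend, and the Snord69 call was lost without replicate 3. Without replicate 1, 10 box C/D and 4 box H/ACA rows were called, and without replicate 2 the counts were 6 and 4. The highest rows, Snord95 and Snord104, were not called (limma adjusted p = 0.229 and 0.23), each being at 0 in 1 library.

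Because some values returned in nearby rows, the rows around each snoRNA row were examined too. Among the 5 positions above and 5 below, the row itself left out, at least 1 row reached 100 RPKM for 39.1% ± 3.15 of snoRNA rows, against 22.2% ± 0.110 of microRNA rows and 21.8% ± 0.944 of the other autosomal rows. That share was 37.7% ± 3.80 for box C/D rows and 42.2% ± 1.70 for box H/ACA rows, a difference of -4.44 ± 2.10 points, negative in 3 of 3 libraries (exact sign-flip p = 0.25, the smallest possible). With the row itself counted in, the share was 45.2% ± 2.92 for snoRNA rows, of which 9.09% had that level in their own row, against 23.8% for microRNA rows and 23.6% for the other autosomal rows. With the row counted in, 2 positions on each side gave 32.1% for snoRNA rows, and 10 positions 58.5%. All snoRNA rows had a row at 1 RPKM or more within 5 positions in each library, also with the row itself left out, as did 93.5% of the other autosomal rows. The position just above a snoRNA row reached 100 RPKM in 12.7% ± 1.57, the snoRNA row itself in 9.09% ± 2.41 and the position just below in 3.03% ± 1.05. At 0 stood 37.6% ± 3.67 of the rows just above, 61.5% ± 4.58 of the snoRNA rows and 41.2% ± 4.10 of the rows just below. Of the rows just above, 30% were themselves snoRNA rows.

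**Figure D3:**
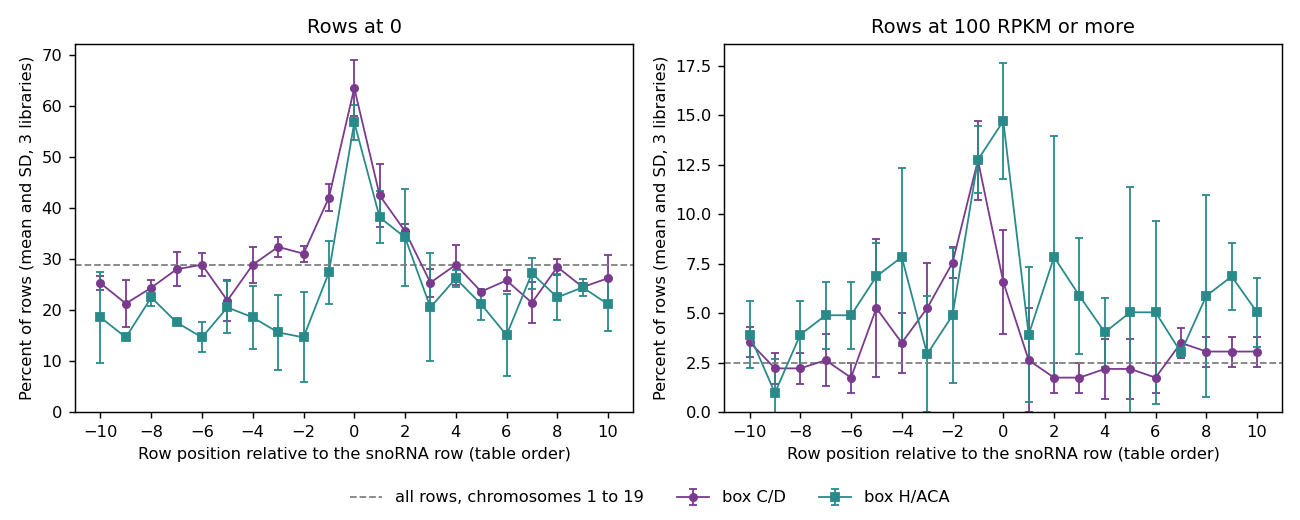
Percent of rows at 0 (left) and at 100 RPKM or more (right) at each position from 10 rows above to 10 rows below a snoRNA row, mean and SD over the 3 E24 libraries, for box C/D and box H/ACA rows, with the share over all rows of chromosomes 1 to 19 as a dashed line. The share at 0 peaks at the snoRNA row in both classes, and just above that row both classes stand at 12.7% at 100 RPKM or more, against 6.58% of box C/D and 14.7% of box H/ACA rows at the snoRNA row itself.

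The position above is where the host usually stands. In mm9, 97 of the 110 snoRNA loci (64 box C/D and 33 box H/ACA) lay inside the locus of another row, and that row stood 1 to 5 positions above in every case. There were 70 such host rows, of which 49 contained 1 snoRNA row and 21 contained 2 or more, up to 4. The 59 snoRNA rows directly below their host were at 0 in 54.8% ± 6.42 and at 100 RPKM or more in 11.3% ± 3.53. The 38 rows placed 2 to 5 positions below were at 0 in 62.3% ± 6.08 and at 100 RPKM or more in 5.26% ± 2.63. The 13 rows inside no other row, which include 8 of the Snord116 rows and Snord64, were at 0 in 89.7% ± 11.8. The 69 host rows nearest to a snoRNA row were at 0 in 15.5% ± 3.65 and at 100 RPKM or more in 15.0% ± 5.09.

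**Figure D4:**
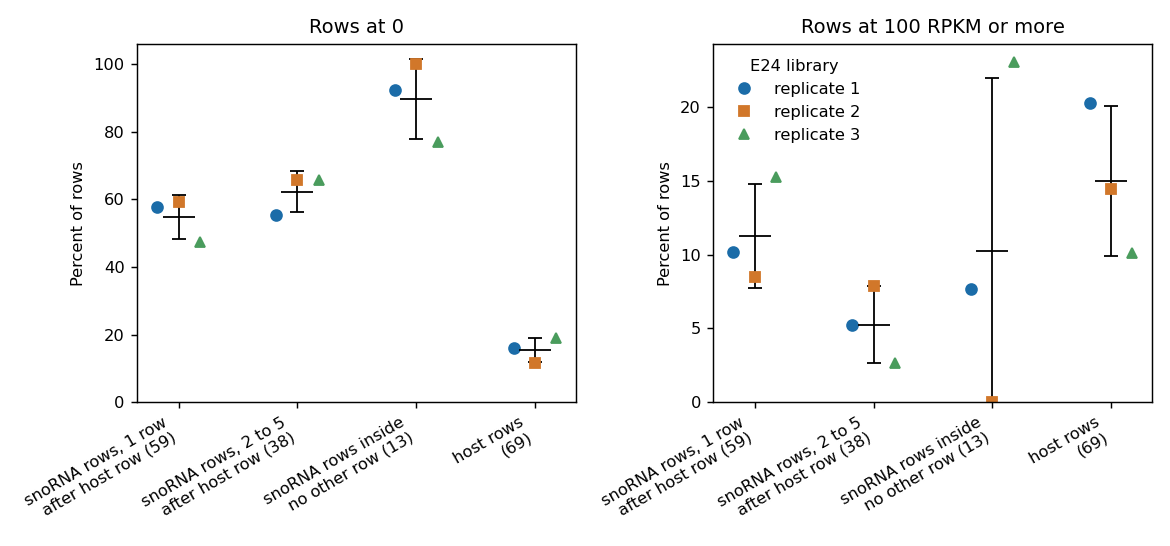
Percent of rows at 0 (left) and at 100 RPKM or more (right) for snoRNA rows by their place after the host row and for the host rows themselves, with a point per E24 library and bars for the mean and SD. snoRNA rows inside no other row are at 0 most often, at 89.7%, and host rows least often, at 15.5%.

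In each library a larger share of snoRNA rows was high inside ribosomal protein hosts than elsewhere. Rows in such hosts, 29 in 20 host rows, reached 100 RPKM in 18.4% ± 5.27, against 5.76% ± 1.43 of the other 81 snoRNA rows, with 5, 4 and 7 rows in replicates 1, 2 and 3 in ribosomal protein hosts and 4, 4 and 6 rows elsewhere. By class the share in ribosomal protein hosts was 13.3% ± 7.64 of 20 box C/D rows and 29.6% ± 6.42 of 9 box H/ACA rows. Outside them it was 4.17% ± 1.03 of 56 box C/D rows and 9.33% ± 2.31 of 25 box H/ACA rows. In ribosomal protein hosts 70% ± 13.2 of box C/D rows were at 0, against 29.6% ± 6.42 of box H/ACA rows. Outside these hosts the order of the means at 0 was reversed, at 61.3% ± 4.49 of box C/D and 66.7% ± 2.31 of box H/ACA rows. The mean share at 1 RPKM or more was 25% of box C/D and 63.0% of box H/ACA rows in ribosomal protein hosts. Elsewhere it was 28.0% and 32%, so the class differences at 0 and at 1 RPKM or more were not general across hosts. The host rows were variable as well: 10, 8 and 5 of the 20 reached 100 RPKM in replicates 1, 2 and 3, of which 3 did in all 3 libraries, and 7 reached it in none.

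In several of these hosts the high value stood in the snoRNA row in some libraries and in the host row in the others. The row for Snord16a had 366.3, 0 and 0 RPKM in replicates 1, 2 and 3, and its host row Rpl4 had 3.95, 355.1 and 346.8 RPKM. Snora65 had 0, 253.9 and 239.2 RPKM, and its host row Rpl12 had 248.7, 28.8 and 15.3 RPKM. In each library exactly 1 row of either pair reached 100 RPKM. Snora33 had 0, 249.99 and 244.9 RPKM, and its host row Rps12 had 304.9, 7.26 and 6.70 RPKM. Snora7a, which overlaps an exon of its host in GENCODE, had 298.0, 41.8 and 0 RPKM, and the host row Rpl32 had 0.967, 270.5 and 257.3 RPKM. The high value changed place between replicate 1 and the other 2 libraries in all of these pairs.

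With Rpl3 the high value stood in 3 different rows. The row for Snord43 had 474.1, 0 and 0 RPKM, the row for Rpl3 had 5.68, 415.5 and 4.78 RPKM, and the row for Snord83b had 7.17, 0 and 378.9 RPKM. Each library thus had 1 of the 3 rows at 100 RPKM or more. Snord58b on chromosome 18 had 0, 3.77 and 101.6 RPKM against 313.1, 102.5 and 0 RPKM in Rpl17, and Snord72 had 0.0112, 0 and 78.1 RPKM against 11.8, 74.0 and 0.0808 RPKM in Rpl37. In both pairs the snoRNA row was high in replicate 3, the library in which the host row was low.

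**Figure D5:**
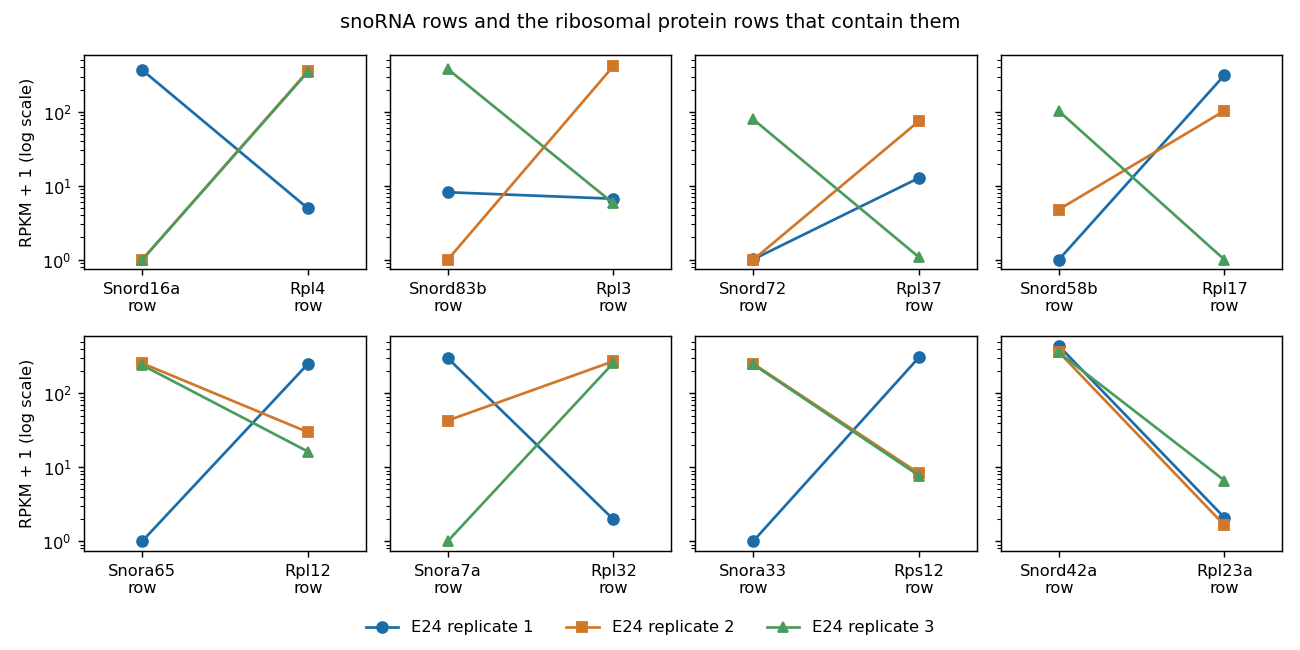
RPKM + 1 on a log axis in 8 snoRNA rows (left of each panel) and in the ribosomal protein row that contains each (right), with a line per E24 library. In the pairs of Snord16a, Snora65, Snora33 and Snora7a the line of replicate 1 crosses those of the other libraries, and in the pair of Snord42a the lines run the same way, with 356.3 RPKM or more in the snoRNA row and 5.61 RPKM or less in the Rpl23a row.

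A host row and its snoRNA rows were also read as a block, by the highest value in it. Of the 20 ribosomal protein blocks, 11 reached 100 RPKM in each library, 1 in 2 libraries, 3 in 1 library and 5 in none. For the host rows alone the counts were 3 in each library, 4 in 2, 6 in 1 and 7 in none. Among the 50 other hosts the counts in all 3 libraries were 2 blocks and 2 host rows. A block holds more rows than a host row and so reaches 100 RPKM more easily, and this split was chosen after the values were seen. In the Rpl4 block the highest value was 366.3, 355.1 and 346.8 RPKM in replicates 1, 2 and 3, in the Rpl12 block 248.7, 253.9 and 239.2 RPKM, in the Rpl3 block 474.1, 415.5 and 378.9 RPKM, and in the Rpl32 block 298.0, 270.5 and 257.3 RPKM. In each of these 4 blocks the highest values of the 3 libraries lay close together.

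The return of a value was counted for all snoRNA rows at 20 RPKM or more in a library, which gave 100 comparisons over 6 ordered pairs of libraries. A value matched when another library held one within a natural-log difference of 0.1. The match stood in the same row in 14, in the host row in 8 and in another row within 5 positions in 17, and 61 had no match. Replicates 2 and 3 gave 12 of the 14 matches in the same row, in 35 comparisons (34.3%). Replicates 1 and 2 gave the other 2, in 30 comparisons (6.67%), and replicates 1 and 3 gave 0 in 35. When the window was moved by 50 rows, 0, 0 and 2 matched. A window so moved cannot hold the host row, so the 0 for host rows was fixed in advance and gives no background. For the values of microRNA rows the shares were 16.5% in the same row, 5.26% in a containing row and 32.6% in another row. For the other autosomal rows they were 25.3%, 0.193% and 34.8%. With the window moved by 50 rows, another row still held a match for 12.4% of microRNA values and 14.5% of the other autosomal values. At a tolerance of 0.05 the same row held the match in 10 of the 100 comparisons for snoRNA rows, and at 0.2 in 24. Each pair of libraries was compared in both directions, so the 100 comparisons are not independent.

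The imprinted cluster on chromosome 7 gave no signal in any library. Its 10 rows named Snord116, Snord116l1 and Snord116l2, brain-enriched box C/D snoRNAs that lack a known ribosomal target, and the row for Snord64 span mm9 positions 66931360 to 67123742. All 11 were at 0 in all 3 libraries. Rows next to them were above 0: 20.7, 27.6 and 25.3 RPKM for Ipw, a noncoding gene of the same imprinted region, in the row above the cluster, and 3.63, 4.23 and 4.45 RPKM for D7Ertd715e, between the Snord116 rows and Snord64. No row on chromosomes 1 to 19 was named Snord113 or Snord114. The 2 Snord116l copies held by GENCODE had the same sequence, and reads that fit several copies can be split or dropped in counting, so a row at 0 here does not show that the RNA was absent. How the authors counted such reads is not given in the sources used here.

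Some values above 0 are lower than whole reads would give. Of the 330 snoRNA values 203 were 0 and 127 above 0, and 10 of these (7.87%) were below the value of 1 read at 1e+08 mapped reads. The Snord72 row, 60 bp long, stood at 0.0112 RPKM in replicate 1, a value that 1 whole read would give only at 1.49e+09 mapped reads. Read depth being unknown, how such values arose was not tested.

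The rows for proteins that build and carry snoRNAs were mostly above 1 RPKM. Of 8 rows for core proteins of snoRNA particles, 6 were called by limma, where 18.3% of all rows were. They included Nhp2, an H/ACA protein, at 27.3, 27.1 and 28.1 RPKM, Nop58, a C/D protein, at 13.4, 13.4 and 14.4 RPKM, and Fbl, fibrillarin, at 22.1, 9.72 and 19.5 RPKM. The rows for the C/D protein Nop56, at 2.25, 33.1 and 0.476 RPKM, and for the H/ACA protein Gar1, at 0.0905, 9.15 and 0.0242 RPKM, were not called. Of 12 assembly factors 5 were called, with Coil, the coilin of Cajal bodies, at 192, 137 and 137 RPKM. Of 13 rows for noncoding hosts (Snhg genes and Gas5) 6 were called, led by Snhg11 at 38.9, 36.5 and 37.2 RPKM and Snhg6 at 34.5, 35.8 and 29.7 RPKM. Snord87, inside Snhg6, was at 0 in all 3 libraries, so a steady host row went with a snoRNA row at 0. None of the 9 rows for Cajal body RNAs (Scarna) was called (4 reached 1 RPKM in replicate 2, the most in any library), nor were Rmrp, Rpph1 or Terc.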

How the data were processed

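RNA of the dentate gyrus was sequenced in 3 E24 libraries. The authors aligned reads with TopHat2 and computed RPKM with Cufflinks on mm9, per the submitters' processing notes. The sources used here do not give versions, annotation or read handling. The deposited RPKM values were used unscaled, and 9 further value columns, which match no listed sample, entered no computation. Loci are those of the table, with 1-based starts.

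Shares were computed per library over rows of chromosomes 1 to 19 and compared between classes with an exact sign-flip permutation test over the 3 libraries. Levels were tested with limma 3.58.1 in R 4.3.3 (log2(RPKM + 1), intercept only, variance trend, one-sided against 1 RPKM, adjusted p under 0.05), checked on simulated data. The simulated noise was normal and of the same size for all rows. It lacked the jumps between libraries seen here, so the check does not cover such rows. P-values measure the spread between these 3 individuals' libraries. Host rows are rows whose locus contains the snoRNA locus, microRNA rows left out. Hosts, strands and sequences came from GENCODE M21 (GRCm38) by symbol, with no coordinates converted. Python 3.11.15, numpy 2.4.6, pandas 2.3.3 and matplotlib 3.10.9 were used.

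Named rows are the 10 with the highest mean in each class, those called by limma, the highest in each library and the imprinted clusters; host pairs, hosts' other snoRNA rows and list rows beyond these were chosen after their values were seen. Members and lists were chosen with earlier results of these data known. Alternatives were pseudocount, filter, variance model, scaling, window, row sets and leaving out each library. Match tolerances, matches by pair of libraries and the window without the row itself were added after seeing the data.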

Additional observations from a re-analysis of the deposited data

How the results depend on the processing

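Of 66 alternatives tried over 10 results, 6 moved a value or count beyond its limit, which is 1 SD for a share and 1.5 times for a count. Class differences were judged only by the sign of their mean over libraries, and none reversed. For the other results a reversal was not defined. Without the Snord116 rows the class differences moved to 1.22, -8.88 and -7.13 points, from 6.73, -13.0 and -8.13 with them, at 0, at 1 RPKM or more and at 100 RPKM or more. The difference at 0 was then -2.76 points in replicate 1, so its sign was not the same in each library. The share of snoRNA rows with 100 RPKM or more nearby was 32.1% with 2 rows on each side, 58.5% with 10, and 39.1% with the row itself left out, the last added after seeing the data. The share of values matched in the same row was 0 to 34.3% when a library was left out, the highest without replicate 1. Leaving out each library in turn gave 5 to 10 called box C/D rows and 2 to 4 called box H/ACA rows, with 4 box H/ACA rows without replicate 1 and without replicate 2. It gave 59.1 to 63.6% of snoRNA rows at 0, 29.1 to 33.6% at 1 RPKM or more and 7.73 to 10% at 100 RPKM or more. The differences of box C/D minus box H/ACA were 4.64 to 8.59, -14.9 to -11.1 and -9.60 to -6.81 points, and the share within 5 rows was 44.1 to 46.8%. Pseudocount, filter and scaling left the called counts at 7 box C/D and 2 box H/ACA rows, and without the variance trend they were 6 and 2. The filter on rows under a mean of 0.1 RPKM raised the calls over all rows to 5079 of 18173. No paired analysis was possible because there is no second group whose samples could be paired with these. Unsteady and possibly displaced values, unknown depth, 3 libraries, untested recovery of short RNA and short or repeated loci limit every value of a single row.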
